A study of Rattus norvegicus with 12 samples.

Results

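Calmodulin, the calmodulin-dependent protein kinase CaMKII and the calmodulin-dependent phosphatase calcineurin were followed in the left ventricle of rats after treadmill running. The members were all probe sets whose annotation names 1 single gene among Calm2, Calm3, Camk2a, Camk2b, Camk2d, Camk2g, Ppp3ca, Ppp3cb and Ppp3r1. They were 18 of the 8740 probe sets in the table and covered 8 of the 9 genes, among 4736 genes named by such probe sets. Calm3 was not analysed here. The groups were 6 exercised samples, of left ventricle from rats that ran on a treadmill for 7 weeks, and 6 samples of left ventricle from sedentary rats, each of total RNA on 1 single-channel array. The labels number the exercised arrays 1, 4, 5, 7, 8 and 9 and the sedentary arrays 13, 16, 17, 21, 23 and 24. The labels give no strain, sex, age, running schedule or time of tissue collection. Nor do they state whether the arrays come from 12 different animals, and the p-values rest on the spread among these 12 arrays, some of which may be technical. The comparison asked which of these signalling transcripts differed in level after training.

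Calmodulin is the small calcium sensor through which a rise in cytosolic calcium reaches many enzymes. CaMKII is a serine/threonine kinase opened by calcium-loaded calmodulin and kept active by autophosphorylation. In heart muscle it phosphorylates calcium channels and phospholamban, and the delta and gamma subunits, encoded by Camk2d and Camk2g, are its known cardiac forms. The alpha and beta subunits, encoded by Camk2a and Camk2b, are best known from neurons. Calcineurin joins a catalytic subunit, encoded by Ppp3ca or Ppp3cb, with the calcium-binding regulatory subunit encoded by Ppp3r1. It dephosphorylates NFAT transcription factors, and the pathway is known for its part in pathological growth of the heart.

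No member passed the test. Of the 18 probe sets, 9 had a mean intensity over the 12 arrays above the filter of 434, and 0 of these 9 passed an adjusted p of 0.05 (limma, two-sided, Benjamini-Hochberg over 6555 tested probe sets), where 0.32% of all tested probe sets did (0.275% as higher). With no filter it was 0 of 18, where 0.366% of all 8740 did. At an unadjusted p under 0.05 there was 1 of 9 higher and 0 of 9 lower, where 16.2% of all tested probe sets were past it, 9.26% higher and 6.91% lower, and an exact rank-sum test gave 0 of 9, where it gave 15.1% of all tested probe sets. By sign 7 of 9 differences were above 0, as were 51.4% of those of all tested probe sets. In all 18 probe sets the exercised and sedentary intensities overlapped, where 2.39% of all 8740 did not. A difference is the exercised minus the sedentary mean of log2(intensity + 363), a scale that shrinks the change of a dim probe set, while intensities are given in the linear units deposited. The brightness of 1 probe set cannot be set against that of another, so levels are compared between groups only. Nearest to the filter were Camk2a J02942_at inside it, with a mean of 476, and Camk2d rc_AI009268_at outside it, with 391.

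The array of sedentary 17 stood apart from the others. Among the 2185 probe sets under the filter it was the lowest of the 12 arrays in 34.0% and the highest in 37.3%, against 3.75% to 16.1% and 3.52% to 11.4% for each other array. Among the tested ones it was the lowest in 27.7% and the highest in 27.8%. Its estimated array weight was 0.117, and those of the other 11 arrays were 0.728 to 1.63. Differences of members, and of pathway genes named under the rule given below, that turned in sign or moved by over 1.5 times without this array are given both ways. Without it, the 7 tested members other than Camk2d rc_AA894330_s_at and Ppp3ca D90035_s_at lay between -0.073 for Camk2d L13406_s_at and 0.029 for Camk2a J02942_at, with Calm2 at 0.015, Camk2b M16112_g_at at 0.00097 and Camk2g S71570_s_at at -0.020. Of the cardiomyocyte markers 12 of 13 were measured. Their summed intensity was 415918 to 443057 in exercised and 399923 to 434621 in sedentary samples. By sign 10 of the 12 were higher in exercised samples and 2 lower. Among them only Csrp3 passed, with a log2 difference of 0.58 (limma adjusted p = 0.0302). It read 14056 to 22909 in exercised and 10381 to 13423 in sedentary samples. In such bulk samples fewer cells of a type and less RNA per cell cannot be told apart.

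**Figure D1:**
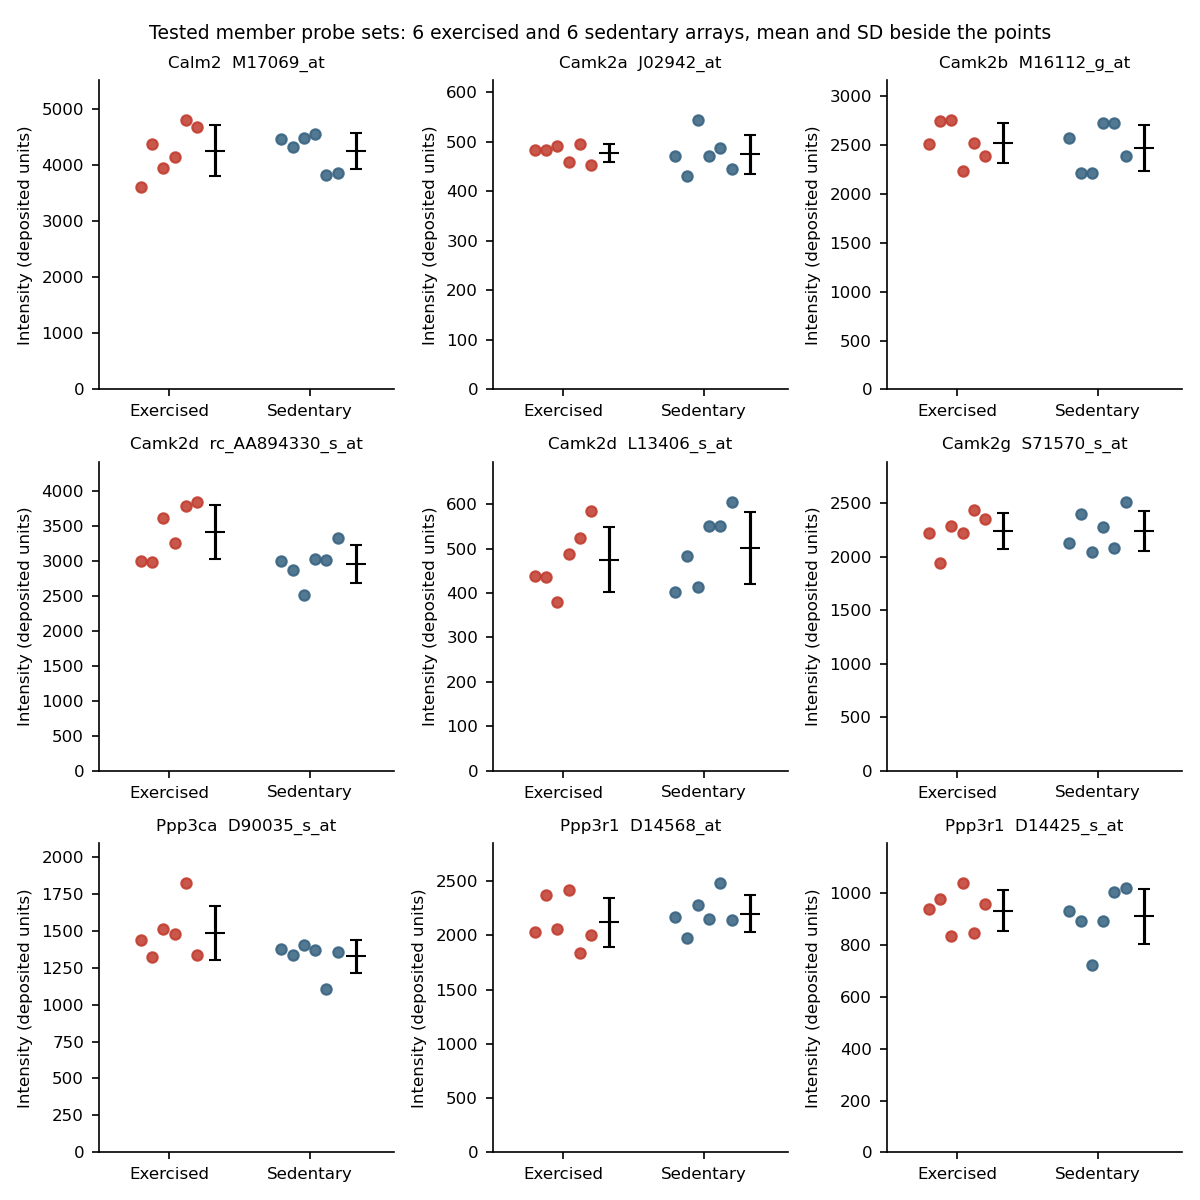
Intensity of the 9 tested probe sets in deposited units, with a point for each of 6 exercised and 6 sedentary arrays and the mean with its SD beside them. The groups overlap in every panel, and Camk2d rc_AA894330_s_at is the only one in which all 6 exercised points lie above the sedentary mean. Without sedentary 17 that mean is 3048, and exercised 1 and 4 lie below it.

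Calmodulin itself did not pass, and its group means lay closer together than the spread of the arrays. The Calm2 probe set, M17069_at, had a lowest, median and highest intensity of 3614, 4269.7 and 4801 in exercised samples, against 3825, 4398 and 4549.8 in sedentary samples. The exercised range enclosed the whole sedentary range, and exercised 1 held the lowest and exercised 8 the highest value of the 12. The means were 4263 ± 449 in exercised and 4251 ± 326 in sedentary samples (SD, n = 6 each). The log2 difference was 0.00090 ± 0.071 (SE, limma adjusted p = 0.996), with a 95% interval of -0.15 to 0.15. Calm2 is 1 of several genes that encode the same calmodulin protein in mammals, and the others were not analysed here.

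Among the CaMKII subunits, Camk2d had the largest difference and it did not pass the test. The start of this gene is shown because the largest difference among the tested members lies in it. That of Ppp3ca is shown because it has the next largest among them on this log2 scale. The windows run from 250 bases before to 50 after the start in RefSeq (GRCr8), on the + strand, at chr2:217698301-217698600 for Camk2d and chr2:227839357-227839656 for Ppp3ca. Capitals mark CpG pairs.
Camk2d: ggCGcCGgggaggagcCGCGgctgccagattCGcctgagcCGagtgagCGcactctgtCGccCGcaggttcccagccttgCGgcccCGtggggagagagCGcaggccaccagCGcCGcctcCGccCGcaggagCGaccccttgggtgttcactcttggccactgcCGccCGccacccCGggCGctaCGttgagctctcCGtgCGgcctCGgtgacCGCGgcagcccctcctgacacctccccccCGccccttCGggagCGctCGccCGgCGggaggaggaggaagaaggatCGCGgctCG
Ppp3ca: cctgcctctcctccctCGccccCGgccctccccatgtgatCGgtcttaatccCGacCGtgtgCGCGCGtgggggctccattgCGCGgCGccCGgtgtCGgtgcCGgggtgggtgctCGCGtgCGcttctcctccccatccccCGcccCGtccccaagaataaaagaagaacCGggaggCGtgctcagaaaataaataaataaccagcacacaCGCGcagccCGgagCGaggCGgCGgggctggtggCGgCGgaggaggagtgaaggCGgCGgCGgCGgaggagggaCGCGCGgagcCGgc

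The windows shown hold 36 CpG pairs for Camk2d and 37 for Ppp3ca. Of the members, 7 matched the RefSeq promoter table by symbol, and 6 of them had 25 to 59 CpG pairs, against a median of 7 and an upper quartile of 19 over 33469 promoters. Camk2a, the neuronal alpha subunit, had 12. GGAAA, the core letters bound by NFAT, was found on either strand in 2 of the 7 windows (Ppp3cb and Ppp3r1) and in 62.7% of all promoters. TGACG, part of the cyclic AMP response element, was in 3 of the 7 (Camk2a, Ppp3cb and Ppp3r1) and in 21.2% of all. A loose form of the MEF2 site, CTA and TAG separated by any 4 bases, was in 0 of the 7 and in 3.84% of all. These matches describe letters in the windows, and the arrays did not measure binding.

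On the brightest Camk2d probe set, rc_AA894330_s_at, the lowest, median and highest intensities were 2987, 3436 and 3846 in exercised samples, against 2513, 3002 and 3335 in sedentary samples. Exercised 5, 8 and 9, at 3609.5, 3790.1 and 3846, lay above every sedentary array, whereas exercised 1, 4 and 7, at 3008, 2987 and 3263, lay within the sedentary range. The means were 3417 ± 384 in exercised and 2959 ± 268 in sedentary samples (SD, n = 6 each), a ratio of 1.16, and 6 of 6 exercised arrays were above the sedentary mean. The log2 difference was 0.18 ± 0.075 (SE) with a 95% interval of 0.025 to 0.34, an unadjusted p of 0.0266 and an adjusted p of 0.241 in limma's test. The exact rank-sum test gave an unadjusted p of 0.132. Without sedentary 17, the lowest array, the difference was 0.14 with an unadjusted p of 0.0600 in limma's test (adjusted p = 0.321). The sedentary mean was then 3048, and exercised 1 and 4 lay below it.

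The other 5 Camk2d probe sets did not share 1 pattern. L13406_s_at, the second that was tested, had a lowest, median and highest intensity of 379, 463 and 585 in exercised samples, against 403, 518 and 605 in sedentary samples. Its log2 difference was -0.043 ± 0.068 (SE, n = 6, limma adjusted p = 0.759), with an interval of -0.19 to 0.10. Under the filter, J05072_at ran from 287 to 335 in exercised and from 172 to 306 in sedentary samples, and rc_AA925495_at from 136 to 208 in exercised and from 105.5 to 169 in sedentary samples. With no filter these gave 0.11 ± 0.046 and 0.085 ± 0.035 (SE, n = 6, limma unadjusted p = 0.0344 and 0.0279, adjusted p = 0.266 and 0.246). Without sedentary 17 they gave 0.062 and 0.064 (limma unadjusted p = 0.0183 and 0.0501, adjusted p = 0.182 and 0.279). With no filter L13407_i_at gave 0.073, and it turned to -0.0099 without sedentary 17, the lowest array, while rc_AI009268_at gave -0.044 and -0.032.

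Exercised 8 and 9 and sedentary 24 were the highest of their groups on both L13406_s_at and L13407_i_at. L13407_i_at read 264 to 498 in exercised samples, with exercised 8 and 9 at 498 and 489.6 and exercised 5 lowest, against 161 to 504 in sedentary samples, with sedentary 24 at 504 and sedentary 17 lowest. L13406_s_at had its highest exercised value of 585 on exercised 9 and its highest sedentary value of 605 on sedentary 24. With no filter, 3 of the 6 Camk2d probe sets and 3 of all 18 members had an unadjusted p under 0.05, where 16% of all 8740 probe sets did. With no filter and without sedentary 17 it was 1 of 18, J05072_at, where 17.9% of all probe sets did.

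**Figure D2:**
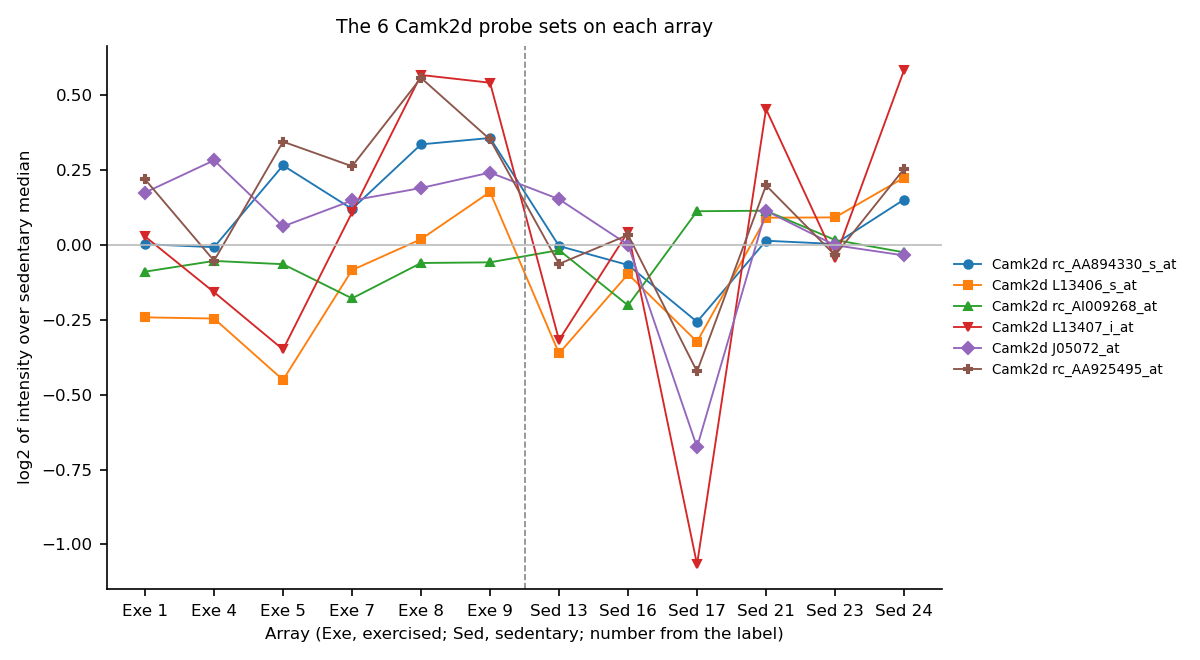
Log2 of the intensity over the median of the sedentary arrays for the 6 Camk2d probe sets on each of the 12 arrays, exercised on the left and sedentary on the right of the dashed line. Lines join the values of a probe set; rc_AA894330_s_at has its own highest values on exercised 8 and 9, and 5 of the 6 lie below 0 on sedentary 17.

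The gamma subunit, the other cardiac form, did not pass, and its group means lay closer together than the spread of the arrays. Camk2g S71570_s_at had a lowest, median and highest intensity of 1944, 2252 and 2441 in exercised samples, against 2043, 2203 and 2512 in sedentary samples. Its means were 2243 ± 169 in exercised and 2241 ± 188 in sedentary samples (SD, n = 6 each), and the log2 difference of 0.0017 ± 0.059 had an interval of -0.13 to 0.13 (limma adjusted p = 0.990). Of the sedentary arrays 5 of 6 lay within the exercised range. J04063_at and U73503_at, the dim Camk2g probe sets, gave 0.016 and -0.090 with no filter, and -0.012 and -0.0044 without sedentary 17.

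The subunits best known from neurons did not pass either. Camk2b M16112_g_at had a lowest, median and highest intensity of 2232, 2514 and 2753 in exercised samples, against 2209.7, 2482 and 2726 in sedentary samples. The difference was 0.027 ± 0.065 (SE, n = 6, limma adjusted p = 0.848), with an interval of -0.11 to 0.17. Camk2a J02942_at had 453, 484 and 496 in exercised samples, against 431, 472 and 543 in sedentary samples, with the highest value on sedentary 17. Its difference was 0.0060 ± 0.035 (SE, n = 6, limma adjusted p = 0.945), with an interval of -0.069 to 0.081. This interval was the narrowest among the tested members, for the probe set nearest to the filter, on a scale that shrinks the spread of dim ones. Of 10 neuron markers 5 were measured, Camk2a among them, with a summed intensity of 4164 to 4999 in exercised and 4263 to 4971 in sedentary samples.

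Among the tested calcineurin subunits the catalytic one, Ppp3ca, had the larger difference and it did not pass. On D90035_s_at the lowest, median and highest intensities were 1319, 1458 and 1819.5 in exercised samples, against 1108, 1365 and 1402 in sedentary samples. Exercised 1, 5, 7 and 8 lay above every sedentary array, and exercised 4 and 9 lay among them. The means were 1483 ± 182 in exercised and 1325 ± 109 in sedentary samples (SD, n = 6 each), a ratio of 1.12, and the log2 difference was 0.13 ± 0.065 with an interval of -0.013 to 0.26 (limma unadjusted p = 0.0718, adjusted p = 0.356). It was 0.077 without exercised 8, which held the highest value, and 0.087 without sedentary 23, which held the lowest.

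The regulatory subunit Ppp3r1 had both of its probe sets above the filter, and neither passed. D14568_at had 1835, 2042 and 2419 as its lowest, median and highest intensity in exercised samples, against 1972, 2159 and 2478 in sedentary samples. D14425_s_at had 834, 949.9 and 1039 in exercised samples, against 722, 913 and 1020.4 in sedentary samples. The log2 differences were -0.047 ± 0.065 and 0.027 ± 0.059 (SE, n = 6, limma adjusted p = 0.724 and 0.839), with intervals of -0.19 to 0.092 and -0.10 to 0.15. On both, 5 of 6 sedentary arrays lay within the exercised range. The opposite signs rested on sedentary 17, the lowest array on D14425_s_at at 722, and without it the differences were -0.037 for D14568_at and -0.019 for D14425_s_at.

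Ppp3cb, the other catalytic subunit, had only a dim probe set, M31809_at, which was not tested. It ran from 245 to 301 in exercised samples, against 150.3 to 272 in sedentary samples, and 5 of 6 exercised arrays lay above every sedentary one. The ratio of its mean intensities, sedentary 17 included, was 1.17, against 1.12 for Ppp3ca. Exercised 5, at 245, lay below the 5 sedentary arrays other than sedentary 17. With no filter the difference was 0.098 ± 0.048 (SE, n = 6, limma unadjusted p = 0.0591, adjusted p = 0.331), and without sedentary 17 it was 0.050 (unadjusted p = 0.0515, adjusted p = 0.283).

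**Figure D3:**
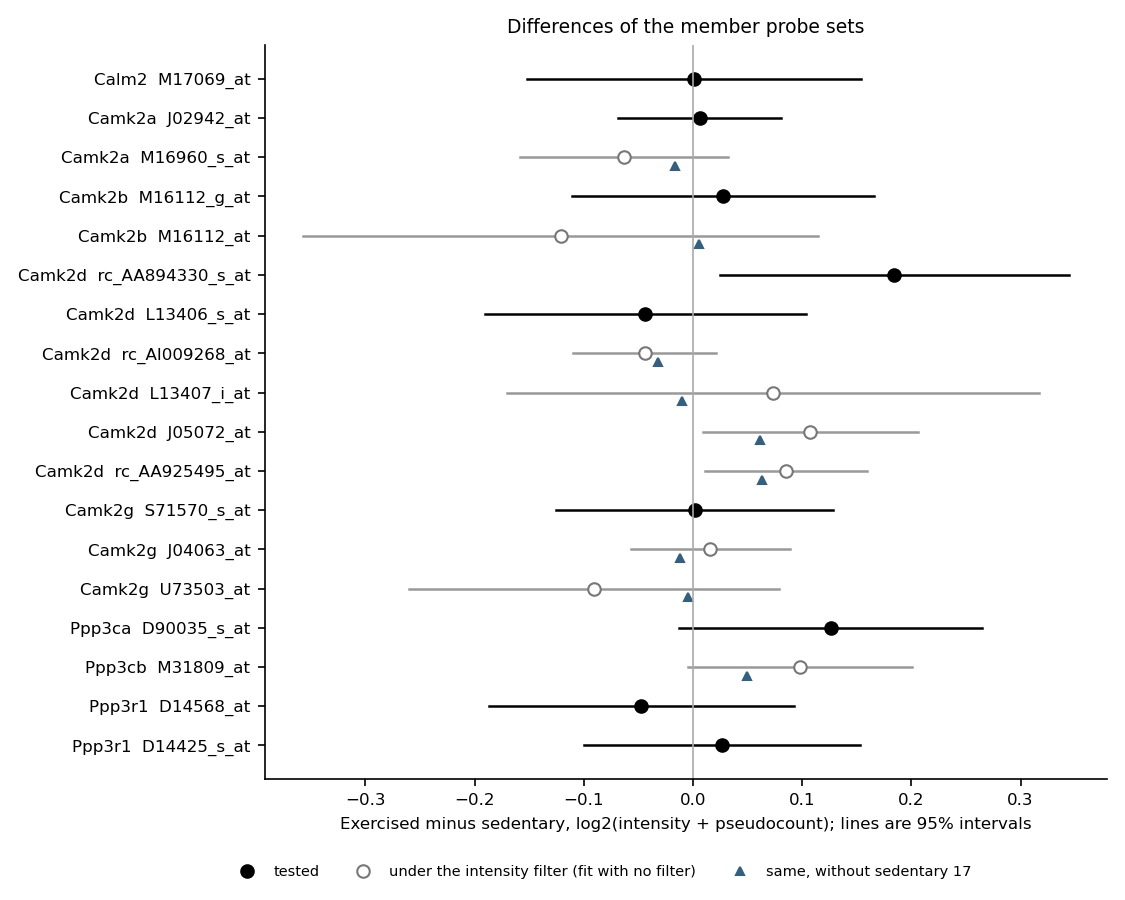
Exercised minus sedentary difference of the 18 probe sets with 95% intervals, filled for the 9 tested and open for the 9 under the filter, whose values come from a fit with no filter. Triangles give those 9 without sedentary 17 and lie between -0.032 and 0.064. Camk2d rc_AA894330_s_at, at 0.18, lies farthest from 0 on this scale, which shrinks the change of a dim probe set.

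The dim probe sets carried the deviation of sedentary 17 in both directions. It was the lowest of the 12 arrays in 5 of the 9 and the highest in 3. Camk2b M16112_at read 563 there, while the other 5 sedentary arrays had 168 to 203, and Camk2g U73503_at read 531, while they had 245 to 273. Camk2d J05072_at read 172, while they had 268.5 to 306. With no filter Camk2b M16112_at gave a difference of -0.12 and Camk2a M16960_s_at one of -0.063. Without sedentary 17 these were 0.0051 and -0.016. Without this array the differences of all 9 lay between -0.032 for rc_AI009268_at and 0.064 for rc_AA925495_at, on a scale that shrinks the change of such dim probe sets. With sedentary 17 included, their ratios of mean intensities ran from 0.75 for Camk2b M16112_at to 1.22 for rc_AA925495_at. That of the bright rc_AA894330_s_at was 1.16.

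**Figure D4:**
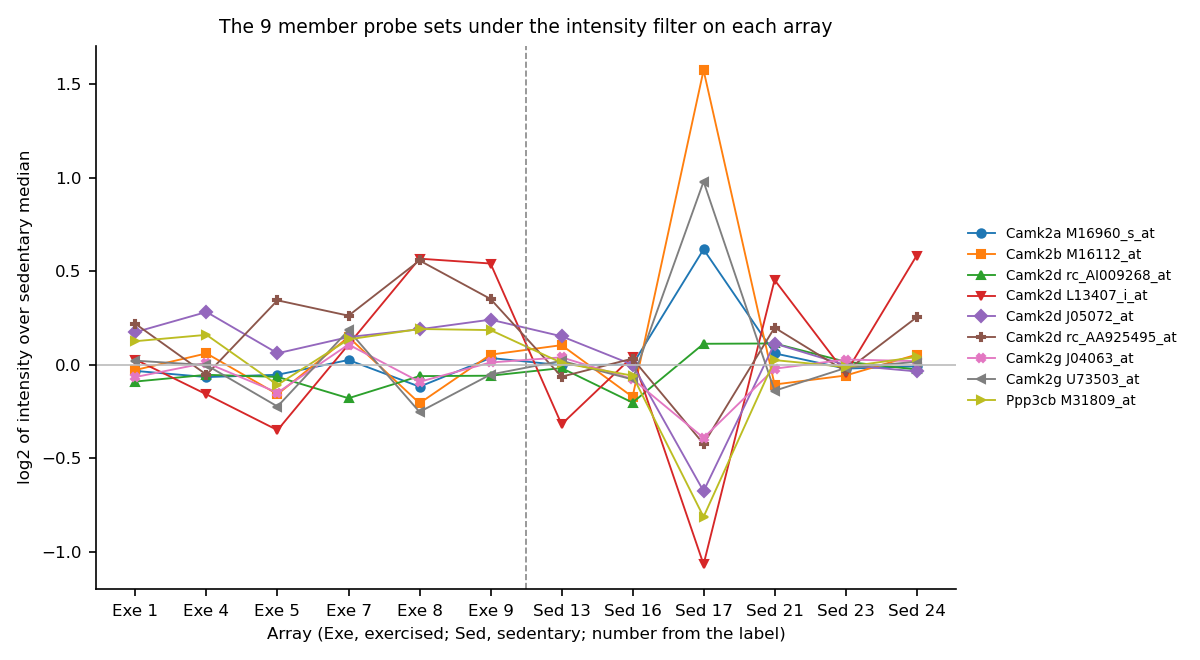
Log2 of the intensity over the sedentary median for the 9 members under the filter on each of the 12 arrays, exercised on the left and sedentary on the right of the dashed line. On sedentary 17 Camk2b M16112_at (563), Camk2g U73503_at (531) and Camk2a M16960_s_at (382) lie far above 0, and Camk2d L13407_i_at (161), Ppp3cb M31809_at (150.3) and Camk2d J05072_at (172) far below it.

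Other genes of the pathway were taken from lists, with 1 probe set per gene, and 74 genes other than the members were measured. Of these, 0 passed an adjusted p of 0.05 in limma's test, 7 (9.46%) had an unadjusted p under 0.05 and 6 (8.11%) did in the exact rank-sum test, where 16.2% and 15.1% of all tested probe sets did. The median difference over 1 probe set for each of 3876 genes was 0.0029. CaMKII subunits and inhibitors had a median of 0.0039 over 6 genes, the 4 members included. The endogenous CaMKII inhibitor Camk2n2 gave -0.055 ± 0.051 (SE, n = 6, limma adjusted p = 0.601), and -0.011 without sedentary 17. The inhibitor Camk2n1, chosen after its values were seen, gave -0.099 ± 0.12 (adjusted p = 0.681), and sedentary 17 read 2075, where the other sedentary arrays read 956 to 1119. Without that array the Camk2n1 difference turned to 0.031 ± 0.039 (limma adjusted p = 0.737).

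Other calmodulin-dependent kinases had a median of -0.010 over 14 genes, 4 above and 10 below 0, and 2 had an unadjusted p under 0.05. Camkk1, the kinase that activates CaMKI and CaMKIV, was the only 1 of the 74 pathway genes whose groups did not overlap, as in 2.07% of all tested probe sets. Its probe set S83194_s_at read 972 to 1029.9 in exercised samples, against 852 to 967 in sedentary samples. The difference was 0.10 ± 0.032 (SE, n = 6, limma unadjusted p = 0.00659, adjusted p = 0.148), and 6 of 6 exercised arrays were higher than the sedentary mean. It passed with array weights, at 0.12 (limma adjusted p = 0.0433), where 160 of the 6555 tested probe sets passed, against 21 in the reported fit. Its substrate Camk1 gave 0.11 ± 0.046 (adjusted p = 0.253), and 0.083 without sedentary 17, its lowest array. Pnck, a brain kinase of the CaMKI family, gave -0.15 ± 0.10 (adjusted p = 0.464), or -0.085 without sedentary 17, and -0.12 on its other probe set (adjusted p = 0.112).

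Of 5 measured genes of calcineurin, its regulators and the immunophilins, members included, 2 were above and 3 below 0, and the median was -0.047. Ppif, the mitochondrial cyclophilin, gave 0.14 ± 0.10 (limma adjusted p = 0.492). Transcription factors downstream had a median of 0.00046 over 8 genes. Gata4, a cardiac factor, gave 0.043 and -0.13 on its probe sets (adjusted p = 0.627 and 0.260). The NFAT kinase Gsk3b gave 0.058 and -0.088 (adjusted p = 0.668 and 0.414), so the probe sets of both genes disagreed in sign. Without sedentary 17 those of Gsk3b gave 0.11 and -0.038. NFAT genes and class II deacetylases were not analysed here.

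Calcium cycling proteins and phosphatases that CaMKII acts on or with had a median of -0.030 over 14 genes, 5 above and 9 below 0. The phosphatase inhibitor Ppp1r1a gave -0.12 ± 0.059 and -0.14 on its probe sets (limma adjusted p = 0.331 and 0.255), the second at -0.086 without sedentary 17. Phospholamban, Pln, gave 0.083 ± 0.049 (adjusted p = 0.412). The calcium channel subunit Cacna1c gave 0.12 ± 0.082 on the brighter probe set and -0.087 on the other (adjusted p = 0.461 and 0.668). Without sedentary 17 these were 0.050 and 0.0075, so that the second turned in sign. Calmodulin-binding neuronal proteins had a median of -0.047 over 8 genes, with Nrgn, which holds calmodulin in neurons, at -0.12 (adjusted p = 0.406) and Pcp4l1 at 0.11 (adjusted p = 0.440). Without sedentary 17 they were at -0.049 and 0.037.

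Other calmodulin-regulated enzymes and pumps had a median of -0.0014 over 17 genes, 8 above and 9 below 0. Atp2b4, a calcium pump of the plasma membrane that calmodulin stimulates, read 1308 to 1844 in exercised samples, against 1524 to 1985 in sedentary samples, on U15408_at. Its difference was -0.19 ± 0.073 (SE, n = 6, limma adjusted p = 0.224), and its other probe set, X76452cds_s_at, gave -0.20 ± 0.047 (adjusted p = 0.0749). Add3, an adducin of the membrane skeleton, gave -0.15 ± 0.054 and 0.047 on its probe sets (adjusted p = 0.182 and 0.719), the second at 0.10 without sedentary 17.

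Genes known to respond to calcineurin or CaMKII in heart or neurons had a median of 0.081 over 8 genes, 6 above and 2 below 0. Skeletal alpha actin, Acta1, read 6279 to 19463 in exercised samples, against 5223 to 9653 in sedentary samples, a difference of 0.73 ± 0.25 (SE, n = 6, limma adjusted p = 0.169). Nppa, chosen after its values were seen, gave 0.29 ± 0.34 on its brightest probe set (limma adjusted p = 0.680). Its other probe sets gave 0.67 to 0.88 (adjusted p = 0.331 to 0.446). Bdnf, a neurotrophin, gave 0.11 ± 0.046 on its brightest probe set (adjusted p = 0.252) and -0.26 to 0.068 on the others. Among these, S71196mRNA_s_at gave -0.26 and S71201mRNA_at -0.19 (adjusted p = 0.141 and 0.130), so the sign of Bdnf depended on the probe set. The regulator Rcan1, a direct target of calcineurin signalling, was not analysed here.

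**Figure D5:**
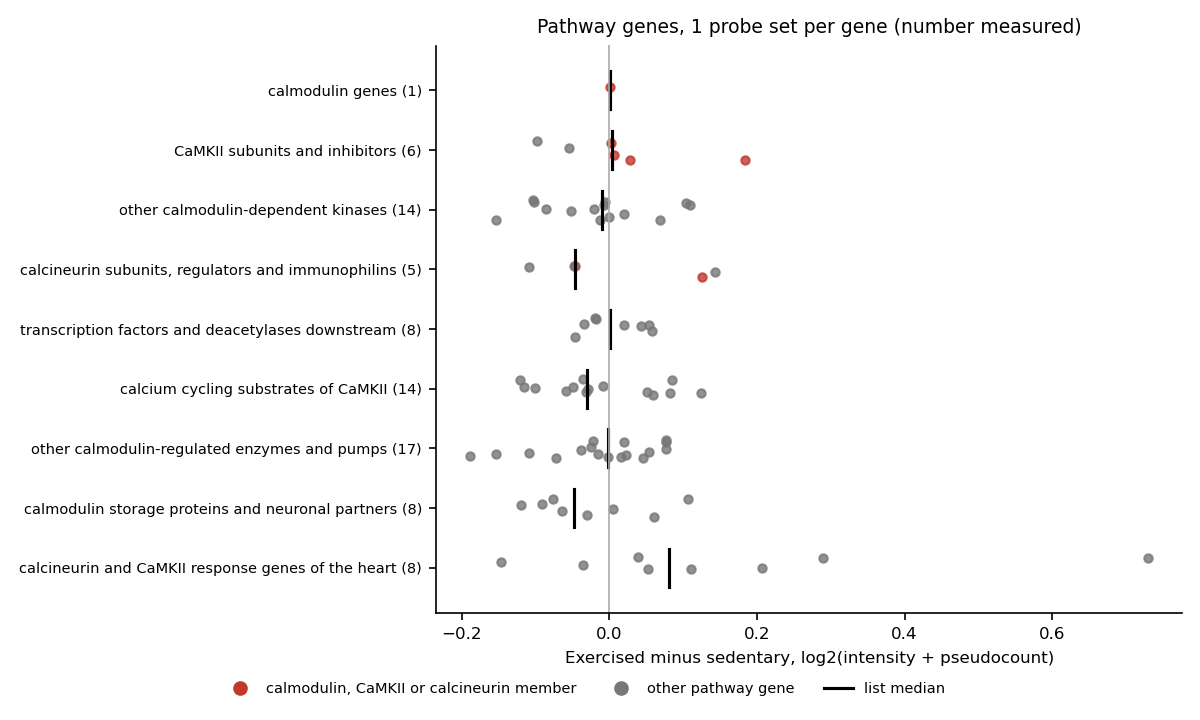
Exercised minus sedentary difference of each measured gene of 9 pathway lists, with members in red, other genes in grey and the list median as a black bar. Most genes lie within 0.2 of 0; Acta1, at 0.73, lies farthest from it.

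Markers of other cell types were read beside these values. All 8 measured fibroblast markers were higher by sign in exercised samples, with a summed intensity of 38405 to 60441 in exercised and 33335 to 41881 in sedentary samples. The highest fibroblast sums, 60441 and 49382, were on exercised 4 and 5, which read 2987 and 3609.5 on Camk2d rc_AA894330_s_at, the lowest exercised value and one above every sedentary array. All 5 smooth muscle markers were higher by sign on 1 probe set each, at 19874 to 25152 in exercised and 17952 to 20678 in sedentary samples. Des, which cardiomyocytes also express, made up most of these sums, with means of 16279 in exercised and 14014 in sedentary samples. The sums therefore do not measure smooth muscle alone. Actg2 gave 0.17 and Myh11 0.040 (limma adjusted p = 0.0729 and 0.764). Acta2 gave 0.34 on its brightest probe set (adjusted p = 0.263) and -0.051 to 0.060 on the others. Of 7 macrophage and leukocyte markers 3 were above and 4 below 0, with a summed intensity of 18512 to 24549 in exercised and 17000 to 19247 in sedentary samples. Among them the lysozyme gene Lyz2 rose by 0.997 ± 0.18 on the log2 scale (SE, n = 6, limma adjusted p = 0.0404). All 3 erythroid markers were below 0, with sums of 13476 to 38361 in exercised and 37211 to 42376 in sedentary samples. The haemoglobin gene Hbb read 15784 and 8786 on exercised 4 and 5, against at least 28362 on every other array. The atrial myosin gene Myl7 read 8652 on sedentary 16 and 1136 to 1923 on the other 11 arrays. No marker was listed at 0. The part of these cells in the values of Camk2d and Ppp3ca was not tested.

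The genes whose pattern was most like that of a member were found by Pearson correlation over the 12 arrays with group means removed, each the highest among 5375 or 5376 tested probe sets. For Camk2d rc_AA894330_s_at they were Capza2 (0.95), Lipa (0.93) and Atp5if1 (0.91). For Calm2 they were Cd59b (0.88), Ciao2b (0.85) and Polr2h (0.85), and for Ppp3r1 D14568_at Pnlip (0.90), Akap1 (0.90) and Nup62 (0.89). The values share the arrays and their deviations, sedentary 17 included, and are a description of these 12 arrays.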

How the data were processed

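The authors deposited 1 intensity per probe set and array on a linear scale, per the labels from total RNA of rat left ventricle. Not given in the sources used here are the array software, the scaling and any background correction. Array medians lay between 839.7 and 875. Intensities were taken to log2(intensity + 363), the pseudocount being the 20th percentile of all values. Probe sets whose mean was above the 25th percentile of means (434) were tested, 6555 of 8740. The fit was limma 3.58.1 in R 4.3.3 (lmFit, eBayes with a mean-variance trend), two-sided, with Benjamini-Hochberg adjustment and a threshold of 0.05. It was tested on simulated data. Groups came from the titles, which give no pairing or batch. Genes came from the platform annotation, in which 7006 probe sets name 1 gene, 308 several and 1426 are unnamed here.

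All member probe sets are named, and of each pathway list the 2 genes with the smallest unadjusted p, the gene of largest difference and any past the threshold. Members and lists were chosen with earlier results of these data known. Alternatives were other pseudocounts, a floor, other filters, other normalizations and variance models, an adjusted p of 0.10, array weights, the exact rank-sum test and leaving out arrays. The number of arrays limits the precision.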

Additional observations from a re-analysis of the deposited data

Results flagged for a closer look

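Among the 36 sets of 6 values formed by the 18 members in each group, 9 had an array farther from the nearest of the others than Dixon's 95% limit allows, where chance gives about 1 in 20. Over all probe sets the share was 14.2% (4.81% of exercised and 23.6% of sedentary sets of values), and 19.1% among probe sets under the filter (5.77% exercised and 32.5% sedentary), where the members had 8 of 18. Sedentary 17 was the array in 6 of the members' 9, all on probe sets under the filter. It read 563 for Camk2b M16112_at against 168 to 203 on the other sedentary arrays, 531 for Camk2g U73503_at against 245 to 273, and 382 for Camk2a M16960_s_at against 246 to 259.8. It read 172 for Camk2d J05072_at against 268.5 to 306, 236 for Camk2g J04063_at against 293 to 318, and 150.3 for Ppp3cb M31809_at against 254 to 272. This array was the lowest of 12 in 34.0% and the highest in 37.3% of all probe sets under the filter, so deviation in both directions is not particular to the members.

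The remaining 3 lay on other arrays. Sedentary 23 read 1108 for Ppp3ca D90035_s_at against 1335 to 1402 on the other sedentary arrays. Exercised 5 read 245 for Ppp3cb M31809_at against 288 to 301 on the other exercised arrays, and exercised 7 read 355 for Camk2d rc_AI009268_at against 378 to 388.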

How the results depend on the processing

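No member passed an adjusted p of 0.05 under any of the alternatives run, nor of 0.10. The differences of Camk2d rc_AA894330_s_at (0.12 to 0.22) and Ppp3ca D90035_s_at (0.077 to 0.16) stayed above 0 under all of them. The adjusted p of the Camk2d probe set ran from 0.188 to 0.509. The number of members with an unadjusted p under 0.05, 1 in the reported fit, was 3 with no filter, where 9 more were tested, 0 with array weights, 0 by the exact rank-sum test, 0 without sedentary 16 and 17, and 0 to 2 with 1 array left out. It was 0 without exercised 5, exercised 8 or sedentary 17, where the Camk2d probe set had an unadjusted p of 0.0546, 0.0621 and 0.0600 in limma's test, and 2 without exercised 4, with Ppp3ca at 0.0402. Without exercised 9 it was 1, Ppp3ca at 0.0450, in place of Camk2d at 0.0646. Over all probe sets 21 passed, and 32 did with no filter, 50 with a filter at the 50th percentile, 42 without the variance trend, 160 with array weights, 144 at an adjusted p of 0.10, 4 without exercised 4 and 5, 5 without sedentary 16 and 17, and 3 to 37 with 1 array left out (3 without sedentary 23). By the rank-sum test 0 passed, with 989 at an unadjusted p under 0.05. Of the pathway genes 0 passed, and 1, Camkk1, with array weights. The cause of these changes was not tested. Some differences changed sign. Calm2 gave -0.018 under quantile normalization and -0.014 with array weights, and Camk2g S71570_s_at -0.00071 and -0.053. Ppp3r1 D14568_at gave 0.0056 with array weights. Without exercised 4 and 5, Camk2a J02942_at gave -0.0027, Camk2b M16112_g_at -0.029 and Camk2d L13406_s_at 0.015. Without sedentary 16 and 17, Camk2b M16112_g_at gave -0.040, Camk2g S71570_s_at -0.0040 and Ppp3r1 D14425_s_at -0.034. With no filter and without sedentary 17, Camk2b M16112_at gave 0.0051 (-0.12 with that array), Camk2d L13407_i_at -0.0099 and Camk2g J04063_at -0.012. With 1 array left out, Calm2 ran from -0.032 to 0.043, Camk2a J02942_at from -0.0092 to 0.029, Camk2g S71570_s_at from -0.020 to 0.036 and Ppp3r1 D14425_s_at from -0.019 (without sedentary 17) to 0.051. Leaving out these pairs, and sedentary 17 with no filter, was chosen after seeing the data. No paired analysis was possible because the groups share no replicate numbers. Dim probe sets limit what can be read, since no detection calls were used.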
